A study of Mus musculus with 6 samples.

Results

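The Cyp2 and Cyp3 families of cytochrome P450 enzymes were followed through 6 RNA sequencing libraries from mice lacking Abcg8, a subunit of the pump that returns plant sterols to gut and bile. Members were chosen by name: a row belonged if its gene symbol was Cyp2 or Cyp3 followed by a subfamily letter and a number, with pseudogene symbols left out. This gave 58 of the 33639 genes in the deposited table. All mice shared the same whole-body knockout and, per the labels, were male. They were raised to weaning on feed low in sterols that contained 0.005% ezetimibe, which blocks intestinal sterol uptake. After weaning they received for 12 weeks a diet labelled low sitosterol, high sitosterol, ergosterol or stigmasterol. Liver was sequenced from each of the 4 diets and adrenal gland from low and high sitosterol. Each group was 1 mouse, and the sources used here do not give the sterol dose or the age at collection. No wild-type mouse was analysed here, so every value describes diets within the knockout.

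Cyp2 and Cyp3 enzymes are heme proteins of the endoplasmic reticulum that oxidise steroids, fatty acids, drugs and other lipophilic compounds with electrons passed on by the reductase Por. In liver they are among the most abundant hepatocyte transcripts. The nuclear receptors CAR (Nr1i3) and PXR (Nr1i2) induce many of them when foreign compounds or bile acids accumulate, and the pulsed or continuous secretion of growth hormone sets a male-biased and a female-biased subset.

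With 1 library a group there was no replicate spread, and no p-value was computed. A gene was called higher or lower by a size rule: at least 2-fold between libraries, with a 95% exact binomial interval on the ratio that excluded equality. These intervals cover counting error only, and the variation between mice is not in them. The 3 comparisons with low sitosterol share that 1 control library, so an unusual control would shift all of them together. Levels compared between libraries are scaled CPM, counts relative to the library total after TMM scaling within a tissue. Levels compared between genes are TPM, which corrects for transcript length. Unless named otherwise, liver values are listed as low sitosterol, then high sitosterol, then ergosterol, then stigmasterol, and log2 ratios to low sitosterol follow that order without the first.

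Many members are recent tandem copies, and their near-identical sequences set how far single rows can be trusted. Of the distinct 31-base words in the GENCODE M21 transcripts of Cyp2a4, 41.1% occurred in no other gene and 55.9% were shared with Cyp2a5. The unshared part was 27.4% for Cyp2c40, 35.1% for Cyp2c69 and 0.148% for Cyp3a41a, against 94.2% for Cyp2e1, 89.5% for Cyp2c29 and 84.2% for Cyp3a11. Values of single Cyp2a, Cyp2c, Cyp2d and Cyp3a rows are therefore uncertain between close copies, and subfamily sums stand beside them. The similarity of close copies extends to their promoters. Promoters of some genes described below, picked for how their rows behaved, are shown. Each is the 250 bases before the gene's start in RefSeq on GRCm38.p6, 5′ to 3′ on the gene's own strand. Any link between these bases and the values of the rows was not tested. Gene spans given further below are from GENCODE M21. They begin upstream of the RefSeq start for Cyp2a4, Cyp2a5, Cyp2c69 and Cyp3a11, so these windows partly overlap the spans. The first pair, at chr7:26306942-26307191 and chr7:26835089-26835338 on the plus strand, belongs to genes whose rows behaved unlike each other, and capitals mark the bases that differ between them.

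Cyp2a4: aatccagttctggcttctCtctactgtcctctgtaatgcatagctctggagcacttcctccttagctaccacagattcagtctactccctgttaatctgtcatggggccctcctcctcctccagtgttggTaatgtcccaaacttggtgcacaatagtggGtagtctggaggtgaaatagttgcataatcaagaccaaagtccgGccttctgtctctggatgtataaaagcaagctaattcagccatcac
Cyp2a5: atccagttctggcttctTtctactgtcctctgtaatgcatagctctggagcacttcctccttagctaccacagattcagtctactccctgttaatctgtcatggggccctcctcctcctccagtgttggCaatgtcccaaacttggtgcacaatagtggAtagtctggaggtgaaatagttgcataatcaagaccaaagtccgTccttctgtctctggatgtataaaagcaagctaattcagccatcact

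Over 249 aligned bases 245 were identical (98.4%), and the 4 differences in Cyp2a4 lay 232, 120, 90 and 46 bases before its start. The second pair, at chr19:39812815-39813064 and chr19:39886770-39887019 on the minus strand, belongs to 2 neighbouring genes whose rows followed the same order of livers. Capitals again mark differing bases, 3 of 220 aligned.

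Cyp2c40: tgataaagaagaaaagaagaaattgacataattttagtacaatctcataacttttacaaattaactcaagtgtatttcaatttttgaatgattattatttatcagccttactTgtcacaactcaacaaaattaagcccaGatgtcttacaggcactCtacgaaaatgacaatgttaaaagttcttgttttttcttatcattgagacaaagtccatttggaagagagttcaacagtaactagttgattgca
Cyp2c69: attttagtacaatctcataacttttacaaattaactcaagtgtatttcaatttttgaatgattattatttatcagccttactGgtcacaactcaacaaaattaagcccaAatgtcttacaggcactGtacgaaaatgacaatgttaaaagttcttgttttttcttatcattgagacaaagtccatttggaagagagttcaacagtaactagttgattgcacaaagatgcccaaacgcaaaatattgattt

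The last is the window of Cyp3a11 at chr5:145879855-145880104 on the minus strand, the gene with the highest TPM of the family in the stigmasterol liver. Capitals mark CAAAGTCC, a form of the site bound by HNF4A, 109 bases before the RefSeq start, and AGGTCA, the half-site of many nuclear receptors, 162 bases before it. The GENCODE span of Cyp3a11 begins upstream of this CAAAGTCC.

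Cyp3a11: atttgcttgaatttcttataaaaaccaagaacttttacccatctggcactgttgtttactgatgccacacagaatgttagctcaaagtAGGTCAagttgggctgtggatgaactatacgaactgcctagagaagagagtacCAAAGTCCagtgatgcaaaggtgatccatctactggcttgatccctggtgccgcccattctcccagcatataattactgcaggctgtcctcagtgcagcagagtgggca

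CAAAGTCC, searched on both strands, lay in the windows of 13 of the 50 members with a RefSeq window, against 1.2% of all 32851 windows of this length. Both Cyp2a4 and Cyp2a5 held it, as did Cyp2c40 and Cyp2c69, and it occurred in 7 of 13 Cyp2c and 4 of 9 Cyp3a members but in 0 of 5 Cyp2b, 0 of 5 Cyp2d and 0 of 7 Cyp2j members. Copies of a duplicated promoter are not independent of each other. AGGTCA lay in 15 of 50 members (14% of all windows), and TTCNNNGAA, the core to which STAT5 binds, in 2 of 50 (7.02% of all windows), neither of which passed the filter below. A match is a description of letters and not of binding.

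Depth was 41546507 to 50573364 estimated counts per library, which puts the limit for an uncounted gene at 0.0593 to 0.0722 CPM. Abcg8 itself was counted 51, 490, 394 and 788 times in the 4 livers and 2 and 3 times in the adrenals, and with no wild-type library these counts check no label. Y-linked Eif2s3y and Ddx3y together reached 2490 to 3881 counts in the livers but 3 and 5 in the adrenals, so the male label was not borne out there and the adrenals did not match the livers of the same diet in this respect. The stigmasterol liver stood apart: cholangiocyte markers summed to 1206 TPM against 40.8 to 56.2 in the other livers, stellate cell markers to 311 TPM against 25.3 to 28.6, and its TMM factor was 1.35 against 0.83 to 0.95. In bulk tissue, fewer cells of a type and less RNA per cell cannot be told apart. In the low sitosterol liver, markers of adrenal cortex had a median 0.0880% of their TPM in adrenal, against 0.00384% to 0.0112% elsewhere in liver.

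Of the 58 members, 42 reached 1 CPM in at least 1 liver and were analysed there. Cyp2b23, Cyp2j11, Cyp2w1 and Cyp3a41b were at 0 in every liver, and 12 members had some counts but stayed under 1 CPM. Just outside the filter were Cyp2j13 and Cyp3a16, with highest values of 0.977 and 0.949 CPM, and just inside were Cyp2d11, Cyp2d12 and Cyp3a44 at 1.28 to 1.29 CPM. The 5 members Cyp2b9, Cyp2g1, Cyp2s1, Cyp3a41a and Cyp3a44 passed through exactly 1 library. For Cyp2g1 it was the high sitosterol liver and for the other 4 the stigmasterol liver, so the filter itself favoured a higher value there.

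The Cyp2e1 and Cyp2a shares of the family were alike in the low sitosterol and ergosterol livers. The stigmasterol liver stood apart in its Cyp2e1 and Cyp3a shares. Cyp2e1 alone made 43.8%, 38.9% and 44.0% of the family's TPM in the low sitosterol, high sitosterol and ergosterol livers and 14.9% in the stigmasterol liver. Cyp3a members together made 3.09%, 4.79%, 6.11% and 30.8% in the same order, so that Cyp3a11 was the leading member under stigmasterol, at 1979 TPM against 1065 TPM for Cyp2e1. The Cyp2a share was 4.84% and 5.06% in the low sitosterol and ergosterol livers and 12.4% and 14.8% in the high sitosterol and stigmasterol livers. Cyp2c (11.5% to 17.4%), Cyp2d (19.8% to 26.2%) and Cyp2j (2.09% to 2.35%) moved less. The whole family made 1.04%, 0.842%, 1.30% and 0.714% of all TPM in these livers.

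**Figure D1:**
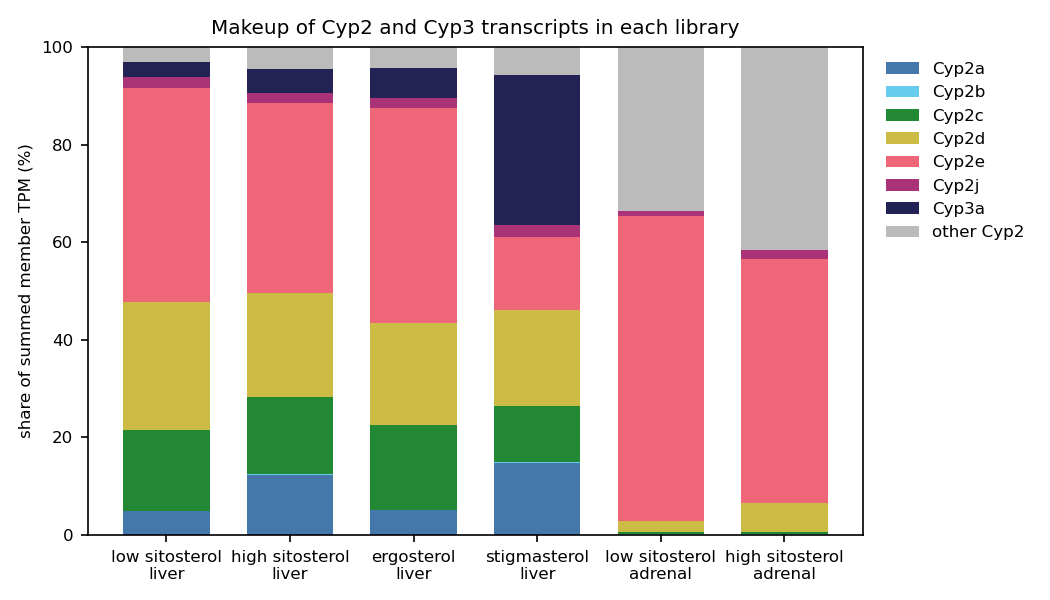
Share of the summed TPM of the 58 Cyp2 and Cyp3 genes taken by each subfamily, as stacked bars in percent, 1 bar for each of the 4 liver and 2 adrenal libraries. Cyp2e makes 43.8% in the low sitosterol liver and 14.9% in the stigmasterol liver, where Cyp3a reaches 30.8%, and both adrenal bars consist mainly of Cyp2e and of Cyp2f2 within the other members.

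Stigmasterol against low sitosterol gave the most calls. Of 42 members, 9 were higher and 22 lower, where 21.6% of all 13378 genes analysed in liver were higher and 7.8% were lower. The members' median log2 ratio was -1.02, against 0.08 over all genes. On total counts, which raise the median of all genes by 0.69 in this comparison, the split was 13 higher and 17 lower. On TPM it was 11 and 13. The shares of all genes called, here and below, are on TMM scaling. Splits of members on other scales are not to be read against them. The 9 higher calls held on total counts, DESeq2 size factors and TPM alike, and 13 of the 22 lower calls did: Cyp2c37, Cyp2c40, Cyp2c50, Cyp2c54, Cyp2c67, Cyp2c69, Cyp2d9, Cyp2d11, Cyp2d34, Cyp2d40, Cyp2e1, Cyp2g1 and Cyp2u1. On TMM-scaled CPM 28 of 42 members (66.7%) had their lowest value of the 4 livers under stigmasterol, against 28% of all genes, and on total counts 22 (52.4%) did, against 6.47%. The members called lower were 11 Cyp2c, 6 Cyp2d, Cyp2e1, 2 Cyp2j, Cyp2g1 and Cyp2u1. Those called higher were 4 Cyp3a, 2 Cyp2a, 2 Cyp2b and Cyp2c55. Among them Cyp2b9, Cyp3a41a and Cyp3a44 passed the filter only through the stigmasterol liver, which favoured a higher value there.

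High sitosterol against low sitosterol gave 6 higher and 7 lower members, where 8.66% of all genes were higher and 4.3% lower. The median log2 ratio was -0.19, against -0.05 over all genes, and total counts gave 8 and 6. Ergosterol against low sitosterol gave 7 higher and 3 lower, where 6.03% and 5.82% of all genes were called. Its median was 0.11 against 0.02, and TPM gave 9 and 2. Cyp2a22 and Cyp2b10 were higher in all 3 comparisons under each scaling tried. Cyp2c67 was lower in all 3, although with ergosterol its log2 ratio of -1.29 was -0.89 on TPM, under the rule. Cyp2c29, Cyp2c38 and Cyp2c39 were called higher with ergosterol and lower with stigmasterol. Their higher calls held under each scaling, but on TPM the stigmasterol log2 ratios were -0.75, -0.91 and -0.10 and no longer called. For Cyp2c39 that ratio was -1.03 on TMM and -0.33 on total counts, and its lower call with high sitosterol (-1.15) was also lost on total counts (-0.95). The 10 members called in none on TMM scaling were Cyp2a5, Cyp2a12, Cyp2c70, Cyp2d22, Cyp2d26, Cyp2f2, Cyp2j6, Cyp2r1, Cyp3a13 and Cyp3a25.

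**Figure D2:**
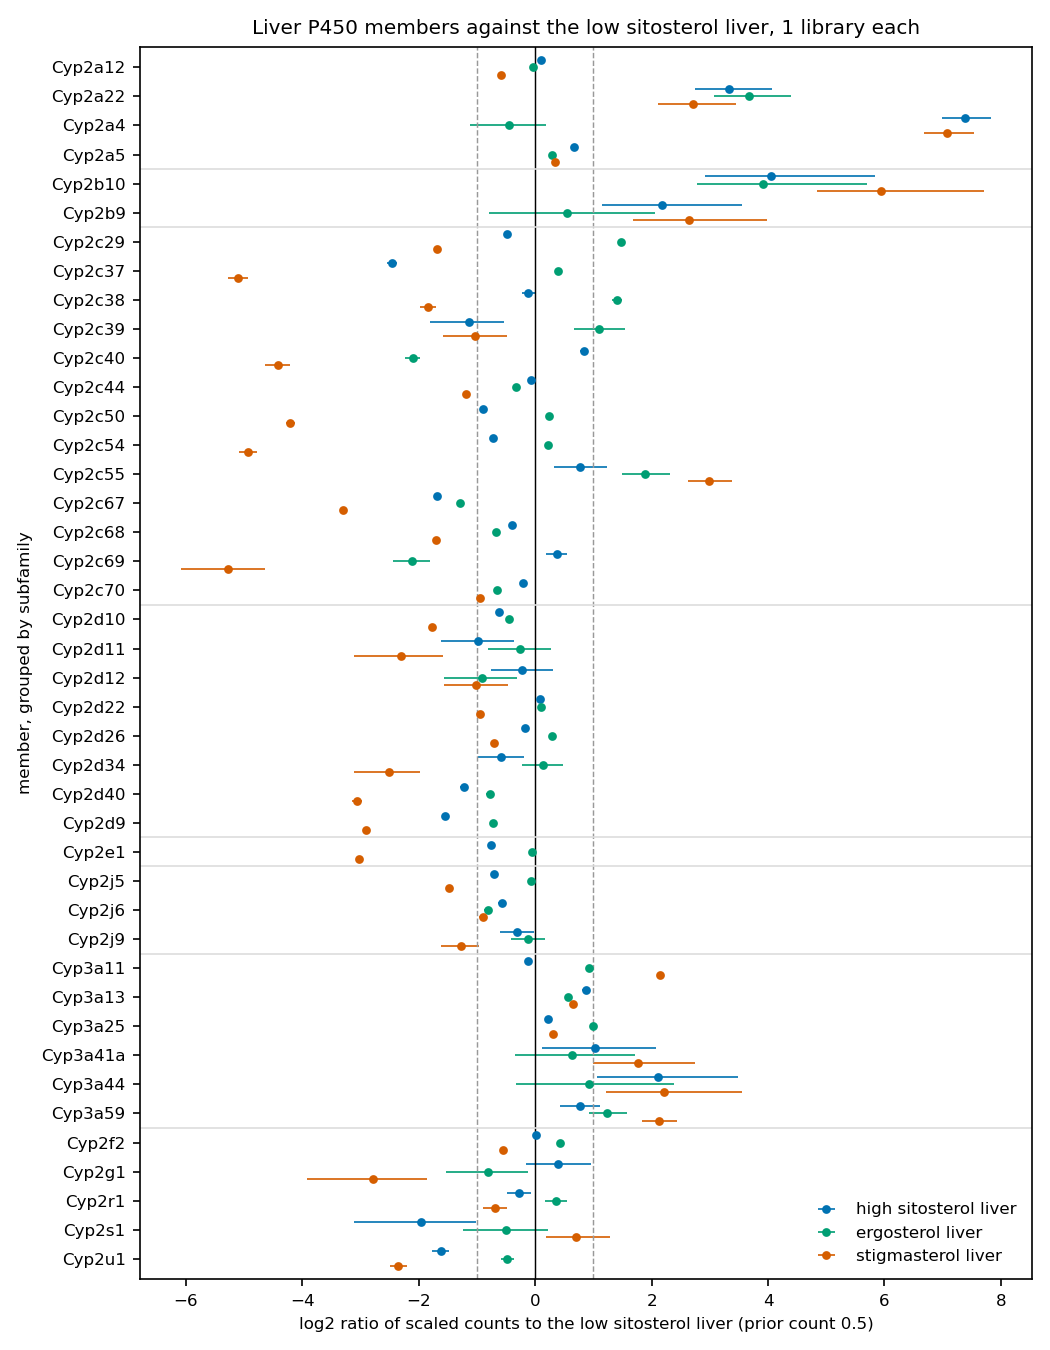
Log2 ratio of TMM-scaled estimated counts to the low sitosterol liver for the members analysed in liver, arranged by subfamily, with 1 marker for each of the high sitosterol, ergosterol and stigmasterol livers (1 library each, bars are 95% exact intervals for counting error). Cyp2a4 lies above 7 in 2 of the 3 livers, and the stigmasterol markers of most Cyp2c and Cyp2d members lie below the other 2.

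Cyp2e1, which oxidises ethanol, acetone and small solvents in hepatocytes around the central vein, lies on the plus strand at chr7:140763739-140774987. It reached 8544, 5037, 8261 and 1048 scaled CPM in the 4 livers. The low sitosterol and ergosterol livers differed by 0.05 on the log2 scale, the high sitosterol liver lay below both, and the stigmasterol liver was 8.15-fold lower than the control (log2 ratio -3.03, interval -3.04 to -3.02). The log2 ratio was -2.33 on total counts and -2.09 on TPM. Without Cyp2e1 the summed counts of the other 57 members gave a log2 ratio of -0.70 in this comparison, which was -0.01 on total counts and 0.06 on TPM. With DESeq2 size factors it was -0.75, so this sum was lower on TMM and DESeq2 scaling and near the control on total counts and TPM.

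Cyp2d members include the male-biased steroid hydroxylases of mouse liver. Cyp2d9, the testosterone 16-alpha-hydroxylase (chr15:82433437-82456845, plus strand), reached 2222, 754, 1351 and 297 scaled CPM in the 4 livers. It was 2.95-fold lower with high sitosterol (log2 ratio -1.56, interval -1.58 to -1.54) and 7.48-fold lower with stigmasterol (-2.90, interval -2.92 to -2.88), and -0.72 with ergosterol did not reach the rule. Cyp2d40 had the same order, at 151, 64.8, 88.0 and 18.1 scaled CPM. So did Cyp2d10, at 1252, 810.5, 913 and 367, although of its 3 log2 ratios only the stigmasterol value of -1.77 was called, and on TPM it was -0.85. The high sitosterol ratio of Cyp2d40 was -1.22, or -0.95 on TPM, which ends its call. Cyp2d22 (log2 ratios 0.08, 0.09 and -0.94 for high sitosterol, ergosterol and stigmasterol) and Cyp2d26 (-0.17, 0.28 and -0.71) were called in no comparison with low sitosterol. All 8 Cyp2d members passed the filter. Their summed counts gave log2 ratios of -0.83 with high sitosterol, -0.37 with ergosterol (0.01 on TPM) and -1.82 with stigmasterol (-0.94 on TPM).

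Among the 4 Cyp2a members the copies parted. Cyp2a4, a testosterone 15-alpha-hydroxylase that is female-biased in mouse liver (chr7:26307169-26315088, plus strand), had 48 counts in the low sitosterol liver and 38 in the ergosterol liver, and 9167 and 10925 in the high sitosterol and stigmasterol livers. In scaled CPM the 4 livers stood at 1.17, 198, 0.853 and 160, so that the high sitosterol and stigmasterol livers were far above the other 2. Its log2 ratio was 7.38 (interval 6.99 to 7.84) with high sitosterol and 7.08 (6.69 to 7.53) with stigmasterol, the largest ratios of any member against low sitosterol, and -0.46 with ergosterol.

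Cyp2a5, the coumarin 7-hydroxylase (chr7:26835305-26843548, plus strand), had 283, 450, 346 and 357 scaled CPM in the 4 livers, and none of its log2 ratios (0.67, 0.29 and 0.34) was called on TMM scaling. On TPM they were 1.32, 0.44 and 1.29, and on total counts 0.87, 0.45 and 1.03, so that the stigmasterol value passed 2-fold on both and the high sitosterol value on TPM. The high sitosterol and stigmasterol ratios of Cyp2a4 lay above 7 on each of these scales. Because the copies share sequence, their sum is given too, which does not depend on how reads were split between them. Cyp2a4 and Cyp2a5 together gave 1.19 with high sitosterol, which was called, 0.29 with ergosterol and 0.86 with stigmasterol, which on total counts was 1.56. Cyp2a22 had 22 counts in the low sitosterol liver and 257, 312 and 246 in the high sitosterol, ergosterol and stigmasterol livers, with log2 ratios of 3.34, 3.67 and 2.72. Cyp2a12, another steroid hydroxylase, had 500, 534, 487 and 333 scaled CPM. All 4 Cyp2a members summed to log2 ratios of 0.60, 0.10 and 0.12, or 1.06, 0.40 and 1.08 on TPM.

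Cyp2b members were scarce in liver, at 0.126% of the family's TPM or less. Cyp2b10, the classical CAR target induced by phenobarbital (chr7:25897620-25926624, plus strand), was counted 5, 103, 90 and 562 times in the 4 livers. The control was lowest and the stigmasterol liver highest. Log2 ratios were 4.06 (interval 2.92 to 5.84), 3.92 (2.77 to 5.71) and 5.94 (4.85 to 7.70). Cyp2b9, a female-biased member, was counted 8, 43, 13 and 88 times, and its ratios with high sitosterol (2.18) and stigmasterol (2.64) were called. Cyp2b13, also female-biased, stayed under the filter with 0, 2, 0 and 12 counts.

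**Figure D3:**
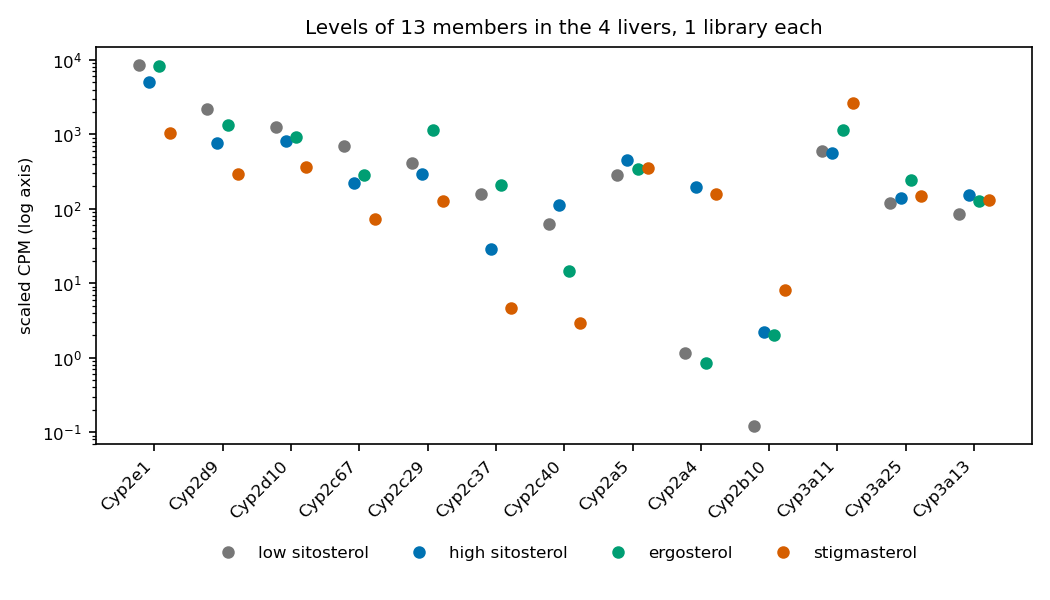
TMM-scaled CPM on a log axis in each of the 4 liver libraries for members described in the text, 1 point per library. Cyp2a4 separates the high sitosterol and stigmasterol livers (198 and 160) from the other 2 (1.17 and 0.853), whereas Cyp2c40 is lowest under stigmasterol and next lowest under ergosterol.

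Cyp2c members make epoxides and hydroxy products of arachidonic and linoleic acid and also act on steroids and bile acids. Their 15 rows, of which 13 passed the filter, had the most varied responses. Cyp2c37, an arachidonic acid oxidase (chr19:39992424-40012243, plus strand), had 158, 28.8, 207 and 4.59 scaled CPM in the 4 livers. It was 5.49-fold lower with high sitosterol (log2 ratio -2.46, interval -2.54 to -2.37) and 34.4-fold lower with stigmasterol (-5.10, interval -5.27 to -4.94).

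Its neighbours Cyp2c50 and Cyp2c54 were lowest in the same liver. Cyp2c54 had 152, 92.2, 176 and 4.97 scaled CPM and Cyp2c50 424, 229, 499 and 22.9, so that only their stigmasterol ratios (-4.93 and -4.21) were called. For these 3 genes the order of the livers was the same: ergosterol, low sitosterol, high sitosterol, stigmasterol.

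Cyp2c40 (chr19:39767071-39812814, minus strand), which forms hydroxyeicosatetraenoic acids, and its copy Cyp2c69 (chr19:39842814-39886799, minus strand) followed another order. Cyp2c40 had 62.6, 111, 14.5 and 2.90 scaled CPM in the 4 livers, and Cyp2c69 had 10.6, 13.6, 2.42 and 0.264. Both were highest with high sitosterol, and their log2 ratios with ergosterol were -2.11 and -2.12. With stigmasterol these were -4.43 (interval -4.65 to -4.22) and -5.28 (-6.09 to -4.64), the latter resting on 18 counts. Between stigmasterol and high sitosterol Cyp2c69 differed 50.2-fold. Of the 31-base words of Cyp2c40, 46.6% were shared with Cyp2c69, and of those of Cyp2c69 57.7% with Cyp2c40, so the 2 rows are not independent. Cyp2c67, whose transcript has 32.4% of its words in no other gene, fell from 707 scaled CPM in the control to 219, 289 and 71.9 in the high sitosterol, ergosterol and stigmasterol livers.

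Cyp2c29, an epoxygenase inducible through CAR and PXR (chr19:39269405-39330713, plus strand), had 408, 292, 1133 and 126 scaled CPM in the same order of livers. It was 2.77-fold higher with ergosterol (log2 ratio 1.47, interval 1.45 to 1.5) and 3.24-fold lower with stigmasterol (-1.69, interval -1.73 to -1.66). Between ergosterol and stigmasterol the difference was 8.97-fold. Cyp2c38 had the same order of livers, at 32.8, 30.1, 87.0 and 9.11 scaled CPM. Cyp2c55, which was the only Cyp2c member called higher with stigmasterol, rose from 62 counts to 251 with ergosterol (log2 ratio 1.89) and 822 with stigmasterol (2.98). Cyp2c70, which hydroxylates chenodeoxycholic acid on the route to muricholic acids, was the Cyp2c member with the highest mean TPM, at 338, 347, 285 and 331 TPM. In scaled CPM it had 588, 510, 374 and 306, and none of its ratios (-0.21, -0.65 and -0.94) was called. The Cyp2c sum gave log2 ratios of -0.62, 0.02 and -2.0. The last was called, and it was -1.31 on total counts and -1.07 on TPM.

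Cyp3a members oxidise steroids, bile acids and drugs, and Cyp3a11 is the main PXR-induced P450 of mouse liver. Cyp3a11 (chr5:145854426-145879964, minus strand) had 606, 559, 1152 and 2681 scaled CPM in the 4 livers. The 2 sitosterol livers lay close together, ergosterol lay above them (log2 ratio 0.93, under the 2-fold rule, but 1.09 on total counts), and stigmasterol was 4.43-fold above the control (2.15, interval 2.13 to 2.17). On TPM the stigmasterol log2 ratio was 3.07. Cyp3a59 was likewise highest with stigmasterol and next highest with ergosterol, at 108, 208, 278 and 785 counts and log2 ratios of 0.76, 1.24 and 2.12. Cyp3a41a (14, 33, 24 and 82 counts) and Cyp3a44 (8, 41, 17 and 65), both known as female-biased, were called higher with high sitosterol and with stigmasterol, except that the high sitosterol ratio of Cyp3a41a (1.03) was 0.95 on TPM. Sex bias is given here as background for some members only. A member without the label may be biased too, for example Cyp2c40 and Cyp2c69, which were lower with ergosterol and stigmasterol. The members were not sorted by it, so no shared direction of a sex-biased class was examined. Cyp3a13 (84.6, 155, 126 and 132 scaled CPM) and Cyp3a25 (121, 141, 240 and 150) were not called on TMM scaling. On total counts Cyp3a13 was called higher with high sitosterol (1.07) and stigmasterol (1.34), and Cyp3a25 with ergosterol (1.16) and stigmasterol (1.0). On TPM the stigmasterol log2 ratios were 1.57 and 1.23. The Cyp3a sum gave 0.08, 0.91 and 1.87, and was called with stigmasterol.

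The other members were fewer and mostly low. Cyp2j5, an arachidonic acid epoxygenase, had 532, 326, 503 and 190 scaled CPM. Its stigmasterol log2 ratio of -1.48 was -0.79 on total counts and -0.56 on TPM, where it was not called, and 5 of 8 Cyp2j rows did not pass the filter. Cyp2f2, the enzyme that activates naphthalene in lung club cells and is also made by periportal hepatocytes, had 611, 616, 817 and 414 scaled CPM and was not called. Cyp2u1, a long-chain fatty acid hydroxylase, had 38.2, 12.4, 27.4 and 7.49 and was called lower with high sitosterol (-1.62) and stigmasterol (-2.35). Cyp2s1, an enzyme mainly of tissues other than liver, was counted 39, 11, 30 and 107 times, and Cyp2g1, an olfactory enzyme, 47, 70, 29 and 11 times. Cyp2r1, a vitamin D 25-hydroxylase, had 9.36, 7.71, 12.0 and 5.82 scaled CPM. Cyp2ab1 and Cyp2t4 had at most 3 and 7 counts in any liver.

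The diets were also set against each other. Stigmasterol against high sitosterol gave 5 higher and 18 lower of 42 members, where 16.4% and 5.6% of all genes were called, and 6 and 11 on total counts. The lower members were 10 Cyp2c, 6 Cyp2d, Cyp2e1 and Cyp2g1. Of the 18 lower calls 10 held under each scaling tried. Cyp2a4 was not among the calls (log2 ratio -0.30, or 0.19 on total counts), and Cyp3a11 was 4.80-fold higher. Ergosterol against high sitosterol gave 9 higher and 6 lower, where 6.18% and 8.96% of all genes were called. Cyp2a4 was 229-fold lower and Cyp2c37 7.21-fold higher in the ergosterol liver. Ergosterol against stigmasterol gave 22 higher and 8 lower, where 7.13% and 19.4% of all genes were called, with Cyp2c37 45.1-fold and Cyp2e1 7.88-fold higher and Cyp2a4 185-fold lower under ergosterol. Cyp2g1, called lower in both comparisons with high sitosterol, passed the filter only through that liver. Cyp2b9, Cyp2s1, Cyp3a41a and Cyp3a44 passed only through the stigmasterol liver, so a higher value there was favoured. These comparisons reuse the same 4 libraries and are not further replicates.

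A list of 7 hepatocyte markers gives a measure of how hepatocyte transcripts moved in the same libraries. Their median log2 ratio to low sitosterol was 0.04 with high sitosterol, -0.22 with ergosterol and -0.91 with stigmasterol, where they ranged from -1.20 (Serpina1a) to 0.70 (Hpx) and 3 of 7 were called lower. Under stigmasterol, where 7 of 7 cholangiocyte and 4 of 7 stellate cell markers were higher, 19 of 42 members lay below the lowest hepatocyte marker and 10 above the highest. With high sitosterol, where 8 of 9 macrophage markers were higher and 1 lower (summed TPM 334 against 91.0), 17 members lay below and 5 above the hepatocyte markers' range. With ergosterol 10 members lay below the range and 15 above it. The share of all genes outside the same ranges was not computed, so these counts do not set the members apart from other genes. The part of these other cell types in the P450 values was not tested.

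Genes that supply or regulate the P450s were read from lists. Over all 13378 genes, 8.66% were higher and 4.3% lower with high sitosterol. With ergosterol these shares were 6.03% and 5.82%, and with stigmasterol 21.6% and 7.8%. The median log2 ratios over all genes were -0.05, 0.02 and 0.08. Of 17 genes for electron supply and heme, 1 was higher with high sitosterol, 1 higher and 1 lower with ergosterol, and 2 lower with stigmasterol, with median log2 ratios of -0.22, -0.13 and -0.54. Por was not called (0.33, -0.49 and -0.14). Alas1, the first enzyme of heme synthesis, had 952, 818, 193 and 224 scaled CPM in the 4 livers, with log2 ratios of -2.30 with ergosterol and -2.09 with stigmasterol.

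Of 19 xenobiotic receptors and their partners, 2 were higher and 1 lower with high sitosterol, 3 higher and 1 lower with ergosterol, and 5 lower with stigmasterol. Nr1i3 (CAR) had 30.1, 60.9, 113 and 9.12 scaled CPM, highest under ergosterol and lowest under stigmasterol, the same order as Cyp2c29 except for the 2 sitosterol livers, and not that of Cyp2b10. Nr1i2 (PXR) had 68.6, 91.0, 56.2 and 57.4 scaled CPM and was not called (0.41, -0.29 and -0.26). A further list held 29 conjugation enzymes, transporters and other genes linked to CAR or PXR, such as Ephx1 and Gadd45b. Of these, 4 were higher and 2 lower with high sitosterol, 7 and 2 with ergosterol, and 10 and 7 with stigmasterol. Whether CAR or PXR drives each of them was not tested. For both lists the shares of all genes higher and lower were 8.66% and 4.3%, 6.03% and 5.82%, and 21.6% and 7.8% in that order. Among the conjugation enzymes Gsta1, a glutathione transferase, had 0.318, 8.40, 4.20 and 151 scaled CPM, and Sult2a8, a bile acid sulfotransferase, 656, 336, 470.3 and 9.93 scaled CPM.

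Of 15 regulators of the growth hormone pattern, 1 was higher and 4 lower with high sitosterol, 2 and 3 with ergosterol, and 1 and 5 with stigmasterol. Over all genes the shares were 8.66% and 4.3%, 6.03% and 5.82%, and 21.6% and 7.8%, for this list and the next. Socs2, a growth hormone target that dampens the receptor, had log2 ratios of -2.12, -1.24 and -1.5. Onecut1, a factor more active in female liver, had 60.3 scaled CPM in the control and 5.71 to 7.88 in the other livers. Of 21 other liver P450s analysed, 3 were higher and 7 lower with high sitosterol, 7 and 2 with ergosterol, and 5 and 10 with stigmasterol. Cyp1a2 had a stigmasterol log2 ratio of -3.60, and Cyp4a14, a PPAR-alpha target, one of 4.74. Position in the liver lobule is given for a few genes as background. Genes were not sorted by it, so no shared direction of a zone was examined.

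In the adrenal gland 10 of 58 members passed the filter, 19 were at 0 in both libraries and 29 had counts under 1 CPM. The family made 0.0908% and 0.0456% of all TPM with low and high sitosterol. High against low sitosterol gave 0 higher and 2 lower of 10, where 3.82% and 2.31% of all 14224 genes were called, and the median log2 ratio was -0.40 against 0.00 over all genes.

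Cyp2e1 had 568 TPM in the low sitosterol and 229 TPM in the high sitosterol adrenal, a log2 ratio of -1.28 (interval -1.31 to -1.25) in scaled counts. Cyp2f2 had 300 and 183 TPM (log2 ratio -0.67, not called), and both genes together made most of the family in either library. Cyp2e1 stood at 15.5% and 6.26% of its mean liver TPM, whereas the hepatocyte gene Alb stood at 0.0268% and 0.0306% of its own. Cyp2b10 was counted 123 and 9 times, a log2 ratio of -3.93 (interval -5.16 to -3.03). It passed the filter only through the low sitosterol adrenal, so the filter itself favoured a higher value there. It was therefore higher with low sitosterol in adrenal and higher with high sitosterol in liver, where it was counted 5 and 103 times. Whether the ratio differed between the tissues was not tested, and the adrenals did not match the livers in Y-linked counts, as given above.

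The remaining adrenal members differed less. Cyp2d22 had 19.3 and 25.4 TPM, Cyp2j6 6.70 and 5.86, Cyp2s1 1.68 and 2.78, and Cyp2u1 2.11 and 1.49, with log2 ratios between -0.53 and 0.61. Adipocyte markers summed to 5647 TPM in the low and 2435 TPM in the high sitosterol adrenal, 4 of 5 of them called lower (median log2 ratio -1.19), and their part in the Cyp2e1 and Cyp2b10 values was not tested. Cortex markers summed to 41982 and 40801 TPM. Cyp2a4 was at 0 counts in both adrenals.

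**Figure D4:**
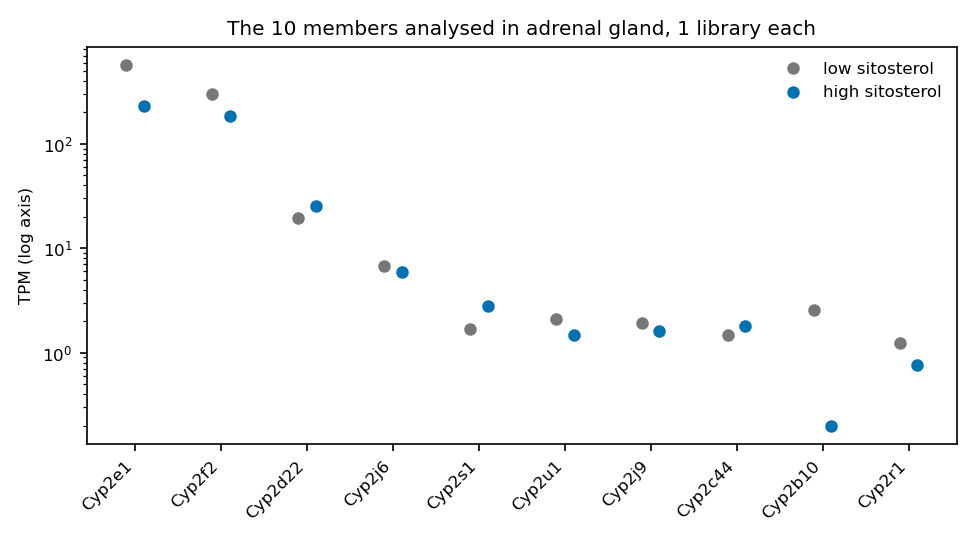
TPM on a log axis in the low and high sitosterol adrenal for the 10 members analysed there, 1 point per library. Cyp2e1 (568 and 229) and Cyp2f2 (300 and 183) lie far above the rest, and Cyp2b10 (2.55 and 0.198) shows the widest gap between the 2 libraries.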

How the data were processed

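RNA from liver or adrenal of 1 mouse per group was extracted with a Qiagen RNeasy kit and made into TruSeq v2 libraries, which do not mark strand, per the labels. Tools in the submitters' processing notes are kallisto 0.43.1, HISAT2 2.0.5 and Trimmomatic 0.33, and the build is mm10. Not given in the sources used here were their roles, the annotation and any filters. The authors deposited estimated counts per gene symbol, which were rounded to whole numbers here, and TPM for the same libraries. One row that names no gene, with 0% of counts, was left out.

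Libraries of a tissue were scaled together by TMM (edgeR 4.0.16, R 4.3.3). A gene was analysed where any library of that tissue reached 1 CPM, which left 13378 in liver and 14224 in adrenal. Log2 ratios used a prior count of 0.5, and 95% intervals were exact (Clopper-Pearson, conditional on both counts; scipy 1.17.1). A count of 0 was given a limit of 3 counts per library. The procedure was run on counts simulated with counting error only and scaled by library totals. They held no variation between mice and no reads shared between copies, so neither was tested. With 1 library per group no p-value or SD can be given. Alternatives were total counts, DESeq2 1.42.0 size factors, no filter, a prior count of 2, and log2(TPM + 0.1). Gene coordinates came from GENCODE M21 (GRCm38), where 57 of 58 members matched, all but Cyp2c44. Promoters were aligned with Biopython 1.88. Members given in every liver were the one with the highest mean TPM in each subfamily, up to 3 with the largest called ratios among those with 10 scaled CPM or more, and both adrenal values were given for the 6 highest there. Others named were chosen after their values were seen. The members and gene lists were chosen with earlier results of these data known.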

Additional observations from a re-analysis of the deposited data

Results flagged for a closer look

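Cyp2b10 moved in opposite directions between high and low sitosterol in the 2 tissues. Its log2 ratio of high to low sitosterol was -3.93 in adrenal (9 against 123 counts) and 4.06 in liver (103 against 5 counts), with 1 library in each group. In adrenal it passed the filter on low counts only through the library in which it was high. Y-linked Eif2s3y and Ddx3y together had 2490 and 2598 counts in the low and high sitosterol livers but 3 and 5 in the adrenals. The libraries of the 2 tissues were thus not matched in this respect. The difference between the tissues was not tested.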

How the results depend on the processing

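The counts of members called were recomputed under 5 alternatives in each of 7 comparisons. Over TMM, total counts, DESeq2 size factors and TPM, 0 of the 124 called ratios of single members changed sign, while 32 of those not called did. Counts stayed within 1.5 times of those reported, with these exceptions. On log2(TPM + 0.1) the members lower were 4 with high sitosterol and 13 with stigmasterol against low sitosterol, and 10 with stigmasterol against high sitosterol, while 1 member was higher in adrenal. On total counts 11 were lower with stigmasterol against high sitosterol. Without the filter on low counts 2 members were higher and 4 lower in adrenal. Scaling moved the median of all genes between stigmasterol and low sitosterol by 0.69 on total counts and 0.86 on TPM. Of 183 ratios of single members and subfamily sums, 130 moved beyond their counting interval on total counts, 140 on TPM and 52 with DESeq2 size factors; none moved with a prior count of 2. No paired analysis was possible because each group is 1 mouse and the labels give no replicate numbers. With 1 mouse per group, differences between mice cannot be told apart from differences between diets. Counts under about 10 limit Cyp2b10, Cyp2b9 and Cyp3a44 in the low sitosterol liver and Cyp2b10 in the high sitosterol adrenal.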
